A study of Mus musculus with 3 samples.

Results

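Single-cell transcript counts of salivary gland organoids that had received 7 Gy of photons were set against those of unirradiated organoids, gene by gene over the whole library. The cells were the barcodes of the photon and control matrices that had 500 or more detected genes and no more than 20% of their unique molecular identifiers (UMIs, each marking 1 captured RNA molecule) from mitochondrial genes. These were 15041 photon and 13219 control cells, together 28260 of the 42216 cells that passed the same filter in the 3 libraries of the series. Genes and functions outside the interferon, MHC, cell cycle and p53 lists are described.

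Both groups were organoids, 3-dimensional epithelial cultures grown in Matrigel, from the submandibular glands of C57BL/6 mice 8 to 12 weeks old. Cells of 4 animals entered the cultures, and which animal a cell came from is not in the labels. All groups grew in a medium with EGF, FGF2, Wnt3a-conditioned and R-spondin1-conditioned medium, insulin, dexamethasone and the kinase inhibitor Y27632, so the unirradiated organoids carried these agents too. Photons were given on day 5 and every culture was collected on day 11, which is 6 days after irradiation. Propidium iodide negative, hence membrane-intact, cells were sorted and 1 library was made per group with 10x Genomics 3' chemistry. The remaining library, from organoids given 7 Gy of protons, shares the control library and enters below only as values set beside the photon ones.

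The submandibular gland makes saliva. Its acinar cells secrete fluid, and its ducts then change the fluid's salt content and add proteins such as kallikreins. Organoids of this kind are grown from ductal and progenitor cells, whose basal members carry keratins 5 and 14 and whose luminal members carry keratins 7, 8 and 18. Ionising radiation breaks DNA and damages membranes and mitochondria, and loss of saliva secretion is its best known effect on this gland.

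The libraries were of like depth. Control held 39514768 UMIs and its median cell had 2757 UMIs from 1482 genes, photon held 46936995 UMIs with medians of 2808 and 1454, and 49 barcodes occurred in both. Mitochondrial genes took 3.29% of control and 2.23% of photon UMIs, ribosomal protein genes 16.5% and 18.6%, and the set-aside lists 3.05% and 6.25%. Epithelial markers were plentiful: 12 luminal duct markers summed to 9212 counts-per-million (CPM) in control and 11549 CPM in photon, and 10 basal duct markers to 6422 and 6799 CPM. Defining markers of other cell types were low: 8 fibroblast markers summed to 1.34 and 1.11 CPM, 7 endothelial markers to 0.886 and 1.47 CPM, 11 immune markers to 2.15 and 1.77 CPM and 5 erythroid markers to 0.886 and 0.980 CPM. The 7 neural markers summed to 43.1 and 24.5 CPM, of which Ncam1 took 39.0 and 21.4 CPM, and the 5 pericyte markers to 17.9 and 18.7 CPM, of which Notch3 took 17.0 and 18.2 CPM. Cells with a UMI from a list of 10 cycling markers made up 6.12% of control and 22.6% of photon cells, and those markers summed to 93.6 CPM in control and 413 CPM in photon.

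For each gene the UMIs of a library were summed over its cells and divided by the library total. The ratio of photon to control CPM is given with an exact 95% interval in parentheses (conditional binomial, Clopper-Pearson), which covers counting error only and not the spread between cultures. With 1 library per group no difference could be tested, and each statement compares these 2 libraries. Genes with a mean of at least 10 CPM were compared, and higher or lower means a difference of at least 1.5-fold. In sums over a library, fewer cells of a type and less RNA per cell cannot be told apart.

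Of 8423 genes compared, 519 (6.16%) were higher in photon and 727 (8.63%) were lower. Outside the set-aside lists 8051 genes remained, of which 305 (3.79%) were higher and 717 (8.91%) lower, so that 29.8% of the differences were toward photon. That split depended on the scaling. The median log2 ratio of all genes was -0.12 under scaling to total UMIs and 0.06 when the libraries were scaled by the median of the gene ratios, and under the latter 676 genes were higher and 251 lower, a share of 72.9%. Totals without mitochondrial, ribosomal and set-aside genes gave 403 higher and 448 lower, a share of 47.4%. List medians are therefore also given relative to the median of all genes, which scaling does not move.

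**Figure D1:**
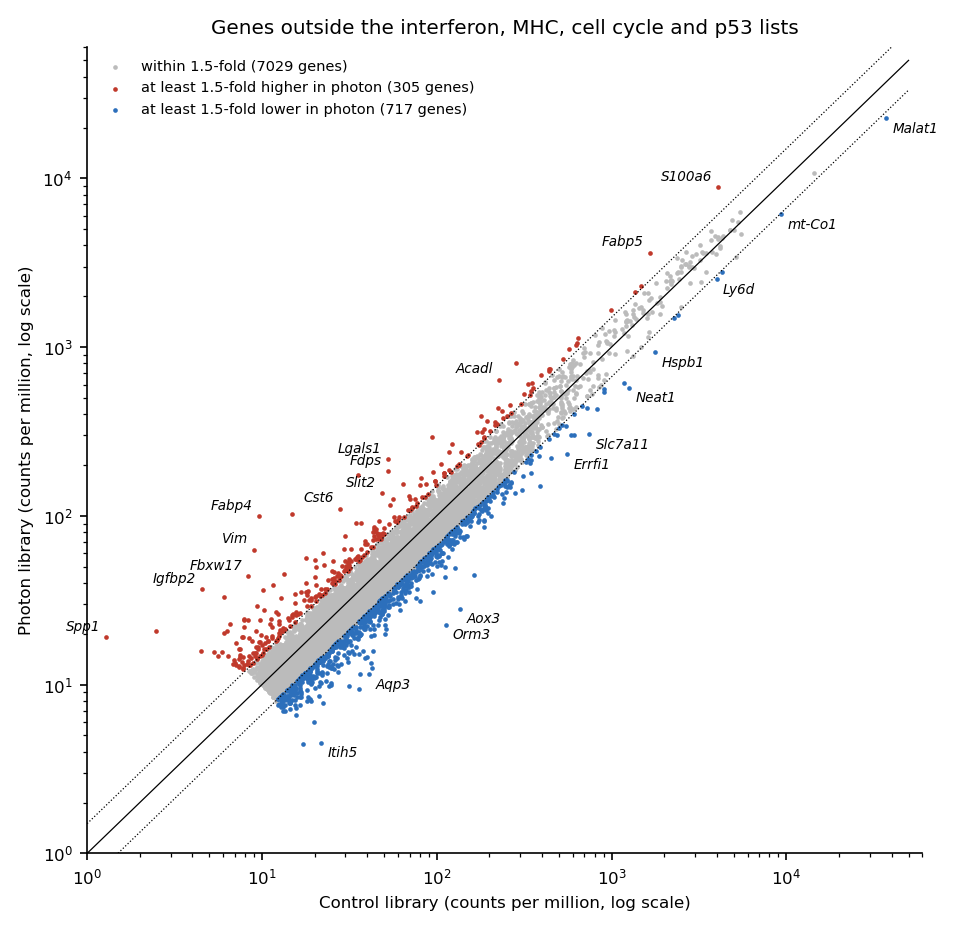
Summed level of 8051 genes outside the set-aside lists in the control library (x axis) and the photon library (y axis), both in counts-per-million on log scales. Each point is 1 gene, the solid line marks equality and the dotted lines 1.5-fold; 305 genes lie above the upper dotted line and 717 below the lower one, and Spp1, Fabp4 and AW011738 lie farthest above while Orm3, Itih5 and Aox3 lie farthest below.

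The libraries also differed in the mixture of cell states. Clustering the cells of both together, with the set-aside, mitochondrial and ribosomal genes left out, gave 8 clusters, which are named here by number and leading genes. Cluster 0, led by Aox3, Orm3 and Hlf, held 45.6% of control and 16.5% of photon cells. Cluster 2, led by Vim, Pclaf and Top2a with 6 cycling markers among its top 10 genes, held 7.39% and 33.8%. Cluster 3, whose leading genes were mostly predicted genes with Hps3, Tsix, mt-Nd6 and Kirrel3 and whose cells had a median of only 1078 UMIs, held 27.9% and 6.88%. Cluster 1 (Klk1b11, Hp, Cst6, Ltf) held 15.2% and 27.3%, and cluster 4 (Igfbp2, Apoe, Igfbp6, Krtdap) held 2.02% and 11.6%. Cluster 5 (Psca, Sprr2f, Sprr2d, Cxcl3) held 1.60% and 2.18%. Ratios below therefore come with a mixture-equal ratio, in words or in the parentheses, in which the 6 clusters that held 100 or more cells of both libraries were given the same weights in both. Under it 123 genes were higher and 129 lower, 84 of the 305 and 99 of the 717 among them. For a gene that leads a cluster this step can move the ratio by its construction, since the cells were sorted into clusters on such genes.

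The 15 genes with the highest ratios are described by what they encode. Spp1 (ENSMUSG00000029304, chr5:104435118-104441050, GRCm38) encodes osteopontin, a secreted phosphoprotein that binds integrins. Spp1 stood at 1.29 CPM in control against 19 CPM in photon, from 51 and 894 UMIs, a ratio of 14.8 (11.1 to 20.0) and a mixture-equal ratio of 5.90. In cluster 4 it had 0 UMIs in 267 control cells and 310 UMIs in 1744 photon cells. Igfbp2 (ENSMUSG00000039323, chr1:72824503-72852474), a carrier protein that binds insulin-like growth factors outside the cell, stood at 4.56 CPM in control against 36.7 CPM in photon, a ratio of 8.06 (6.91 to 9.45). Igfbp2 leads cluster 4, and its mixture-equal ratio was 1.94. Within cluster 4 its level was 143 and 263 CPM in control and photon.

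Krtdap (ENSMUSG00000074199, chr7:30787896-30791097), keratinocyte differentiation-associated protein, a secreted product of stratified epithelium, stood at 35.5 CPM in control against 175 CPM in photon, a ratio of 4.92 (4.65 to 5.21) and a mixture-equal ratio of 2.39. Its direction differed between clusters: Krtdap was at 471 and 2284 CPM in cluster 5 and at 75.5 and 38.8 CPM in cluster 2. Cst6 (ENSMUSG00000024846, chr19:5344705-5349574), the secreted protease inhibitor cystatin M/E, stood at 28.1 CPM in control against 110.2 CPM in photon, a ratio of 3.92 (3.67 to 4.19) and a mixture-equal ratio of 2.98. Lgals1, galectin 1, a secreted lectin that binds beta-galactosides, stood at 52.3 CPM in control against 217 CPM in photon, a ratio of 4.15 (3.96 to 4.36) and mixture-equal 1.69. Cd200 encodes a surface glycoprotein that signals to myeloid cells through its receptor. Its level was 6.53 CPM in control against 22.9 CPM in photon, a ratio of 3.51 (3.06 to 4.03, 2.57 at equal mixture). It was at 6.71 and 28.4 CPM in control and photon cells of cluster 0 but at 27.8 and 28.4 CPM in cluster 4.

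Other genes at the top belong to the cytoskeleton, replication and transcription. Vim (ENSMUSG00000026728, chr2:13573927-13582826), the intermediate filament protein vimentin, stood at 9.03 CPM in control against 63.0 CPM in photon, a ratio of 6.98 (6.25 to 7.81) and mixture-equal 2.50. Pclaf, a PCNA-binding factor made in replicating cells that was not on the cell cycle lists, stood at 14.9 CPM in control against 102 CPM in photon, a ratio of 6.83 (6.27 to 7.45, 2.09 at equal mixture). Without the cells that held a cycling marker UMI the ratios were 5.89 for Vim and 5.52 for Pclaf. Tcea3, a transcription elongation factor of the TFIIS family, stood at 4.45 CPM in control against 15.7 CPM in photon, a ratio of 3.53 (2.99 to 4.18) and mixture-equal 3.24. Fbxw17 (ENSMUSG00000037816, chr13:50417864-50433780), an F-box and WD repeat protein, stood at 8.35 CPM in control against 43.8 CPM in photon, a ratio of 5.25 (4.67 to 5.91), and its mixture-equal ratio of 5.45 was no smaller. Fabp4 and Fdps, also among the 15, are described with lipids below.

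AW011738 (ENSMUSG00000078349, chr4:156203304-156205151) stood at 2.48 CPM in control against 20.8 CPM in photon, a ratio of 8.38 (6.80 to 10.4) and mixture-equal 7.70. It lies 2486 bases from Isg15, an interferon-induced ubiquitin-like gene on the opposite strand whose ratio was 25.7. Agrn lies closer to Isg15, at 1936 bases and on the same strand as Isg15, and had a ratio of 1.14. A930037H05Rik overlaps Rnf213, which is on the interferon list and had a ratio of 6.37, on the opposite strand, and A930037H05Rik itself had a ratio of 3.58 (3.21 to 4.01, 4.76 at equal mixture). Strand use in the authors' counting, not given in the sources used here, decides whether reads of such overlapping pairs were kept apart. Outside the lists, 107 of 8044 genes with a position (1.33%) lay within 20000 bases of an interferon or MHC list gene, as did 10 of 304 higher genes (3.29%) and 2 of 716 lower genes (0.279%). Zfas1, Cpne2 and Trim7 were among the 10, beside Znfx1, Nlrc5 and Irgm1, whose ratios were 1.87, 5.65 and 7.13. Pglyrp1 and Sumo3 were too, beside Mill2 and Pttg1ip, whose ratios were 1.06 and 0.996.

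Promoters were read for the letters GAAANNGAA, a core of the interferon-stimulated response element, on both strands of the window from 250 bases before to 50 bases after each RefSeq start site (build GRCm38.p6). Of the 8423 genes compared, 6733 had a promoter in the RefSeq table. The letters occurred in 42.2% of 116 interferon list genes and in 7.98% of 6432 genes outside the lists. They occurred in 9.47% of 243 higher genes and 6.99% of 544 lower genes. Among the 15 highest genes, 11 had a promoter and 3 held the letters: Spp1, AW011738 and the predicted gene Gm20559, whose ratio was 5.46 (4.76 to 6.28, 7.32 at equal mixture). These 3 windows are shown because they hold the letters of a list that was set aside, with the match in capitals and each written 5' to 3' on the gene's strand. The first 2 run up to the start site, at chr5:104434861-104435110 (plus) and chr4:156203034-156203283 (plus), and the third, at chr6:3346102-3346131 (minus), lies past it.
Spp1: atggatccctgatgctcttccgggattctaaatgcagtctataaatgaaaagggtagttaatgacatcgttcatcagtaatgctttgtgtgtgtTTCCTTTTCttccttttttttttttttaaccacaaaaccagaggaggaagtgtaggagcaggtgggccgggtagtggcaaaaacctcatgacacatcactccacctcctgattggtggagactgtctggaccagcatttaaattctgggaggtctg
AW011738: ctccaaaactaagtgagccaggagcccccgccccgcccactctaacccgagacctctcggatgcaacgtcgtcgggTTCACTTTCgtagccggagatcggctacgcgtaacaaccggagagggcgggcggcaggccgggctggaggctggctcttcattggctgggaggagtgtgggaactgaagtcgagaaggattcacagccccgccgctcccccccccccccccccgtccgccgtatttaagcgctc
Gm20559: atcgaaactgGAAACTGAAgcagaggtggt
The match began 156 bases before the start in Spp1, 174 before it in AW011738 and 20 after it in Gm20559. It read on the minus strand of the printed text in Spp1 and AW011738 and on the plus strand in Gm20559. A match describes letters and is not evidence of binding. AP-1 letters (TGANTCA) were in 6.17% of promoters outside the lists, 9.05% of those of higher genes and 10.3% of those of lower genes. Both shares lay above that of all these genes. ATF4 element letters (TGATGNAA) were in 2.57%, 2.47% and 5.51% of the same sets.

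The 15 lowest genes, of which 2 are predicted genes, included acute phase proteins, transport and oxidative enzymes, and inflammatory signals. Orm3 (ENSMUSG00000028359, chr4:63356162-63359511) and Orm1 (ENSMUSG00000039196, chr4:63344560-63348163) encode orosomucoids, acute phase plasma proteins that bind small molecules. Orm3 stood at 113 CPM in control against 22.6 CPM in photon, a ratio of 0.200 (0.187 to 0.214) and mixture-equal 0.430. Orm1 stood at 164 CPM in control against 44.7 CPM in photon, a ratio of 0.273 (0.260 to 0.287) and mixture-equal 0.480. The pair lie side by side and are alike in sequence, so reads may be split between them. Itih5, which belongs to the inter-alpha-trypsin inhibitor heavy chains that bind hyaluronan, stood at 21.9 CPM in control against 4.54 CPM in photon, a ratio of 0.207 (0.177 to 0.241, 0.385 at equal mixture).

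Aox3 (ENSMUSG00000064294, chr1:58113130-58200698), an aldehyde oxidase, stood at 136 CPM in control against 28.2 CPM in photon, a ratio of 0.207 (0.195 to 0.220) and mixture-equal 0.443. Aqp3 (ENSMUSG00000028435, chr4:41092722-41098183), a water and glycerol channel of the basolateral membrane, stood at 41.1 CPM in control against 11.5 CPM in photon, a ratio of 0.280 (0.254 to 0.309), and holding the mixture equal left it at 0.293. In cluster 5 Aqp3 went the other way, at 81.3 and 145 CPM in control and photon. Il1a, the cytokine interleukin 1 alpha, stood at 17.2 CPM in control against 4.47 CPM in photon, a ratio of 0.260 (0.222 to 0.304) and mixture-equal 0.188. Cxcl3, a chemokine that draws neutrophils, had a ratio of 0.320 (0.292 to 0.351), and Ccl20, a chemokine that draws CCR6-bearing cells, a ratio of 0.352 (0.311 to 0.398). With the mixture equal both chemokines were farther from 1, at 0.284 for Cxcl3 and 0.270 for Ccl20. Il1a, Cxcl3 and Ccl20 were by far highest in cluster 5, with 212 control and 328 photon cells. There Il1a was at 449 and 73.1 CPM in control and photon, Cxcl3 at 1222 and 316 CPM and Ccl20 at 489 and 121 CPM. In the other clusters compared none was above 20.7 CPM, so cluster 5 weighs heavily in these ratios. In cluster 4 Il1a went the other way, at 2.65 and 6.91 CPM.

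The transcription factors Hlf and Epas1 were also in the bottom 15. Hlf, a PAR bZIP factor under clock control, stood at 42.7 CPM in control against 12.5 CPM in photon, a ratio of 0.294 (0.267 to 0.323). Hlf leads cluster 0, and its mixture-equal ratio was 0.653. Epas1, the hypoxia-inducible factor HIF-2 alpha, stood at 31.3 CPM in control against 9.76 CPM in photon, a ratio of 0.312 (0.279 to 0.347) and mixture-equal 0.418. Rflna, a filamin-binding refilin, and Coq8a, a mitochondrial kinase-like protein of coenzyme Q synthesis, had ratios of 0.263 (0.236 to 0.293, 0.449 at equal mixture) and 0.317 (0.287 to 0.350, 0.477 at equal mixture).

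In absolute CPM the largest gains outside the lists were those of S100a6 and Fabp5. S100a6, a calcium-binding protein of epithelia, stood at 4072 CPM in control against 8905 CPM in photon, a ratio of 2.19 (2.17 to 2.20) and mixture-equal 1.31. Fabp5, the epidermal fatty acid-binding protein, stood at 1657 CPM in control against 3632 CPM in photon, a ratio of 2.19 (2.17 to 2.21) and mixture-equal 1.56. Each was above control in 5 of the 6 clusters. In cluster 2 S100a6 was at 12043 and 11823 CPM in control and photon, and in cluster 1 Fabp5 was at 2720 and 2584 CPM. The other 8 were 5 ribosomal protein genes (Rps20, Rps12, Rpl41, Rps27a and Rplp1), Tmem176b, the ductal secretory protein Wfdc2 and the chaperone Hsp90ab1. Only Rpl41 among these 8 was past 1.5-fold, at 1.55 (1.53 to 1.57, 1.26 at equal mixture). Rps27a changed sides, at 1.16 over the library and 0.951 at equal mixture, and was above control in 2 of the 6 clusters. At equal mixture Hsp90ab1 was at 1.04, Rps20 at 1.07, Rplp1 at 1.09, Wfdc2 at 1.11, Rps12 at 1.12 and Tmem176b at 1.22. Wfdc2 was above control in 3 clusters, Rps20, Hsp90ab1 and Rplp1 in 4, Rps12 and Tmem176b in 5 and Rpl41 in all 6.

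The largest losses were those of Malat1, Fth1 and mitochondrial transcripts. Malat1, a long non-coding RNA kept in the nucleus, stood at 37160.5 CPM in control against 22785 CPM in photon, a ratio of 0.613 (0.612 to 0.615) and mixture-equal 0.846. In 2 of the 6 clusters Malat1 was not lower. It was at 27652 and 27980 CPM in control and photon cells of cluster 1 and at 59504 and 63341 CPM in cluster 3. Hspb1, the small heat shock protein HSP27, stood at 1781 CPM in control against 932 CPM in photon, a ratio of 0.524 (0.517 to 0.530, 0.603 at equal mixture), and was lower in all 6 clusters, at ratios of 0.410 to 0.653. Ly6d, a GPI-anchored surface protein of stratified epithelium, had a ratio of 0.635 (0.630 to 0.640, 0.834 at equal mixture), and Fth1, the ferritin heavy chain, a ratio of 0.748 (0.745 to 0.750, 0.829 at equal mixture), which is within 1.5-fold. Both went the other way in 1 cluster, Ly6d at 4481 and 4903 CPM in cluster 0 and Fth1 at 7983 and 9003 CPM in cluster 5. The remaining 6 were mt-Co1, mt-Co3, mt-Cytb, mt-Nd4, mt-Atp6 and Tpt1, a growth-related protein at 0.849 (0.844 to 0.854, 0.821 at equal mixture).

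The genes were then counted by function in 50 lists. Counts of higher and lower members below stand beside 3.79% higher and 8.91% lower among all genes outside the set-aside lists. No count was tested, and in short lists a few genes separate a count from these shares. A list is called apart here where its median log2 ratio differed from that of all genes by at least 0.25 and kept its sign with the mixture equal. Scaling cannot move this distance. 15 lists met this, and for 14 of them the distance was under 0.25 with the mixture equal. The exception was the mitochondrially encoded respiratory chain.

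**Figure D2:**
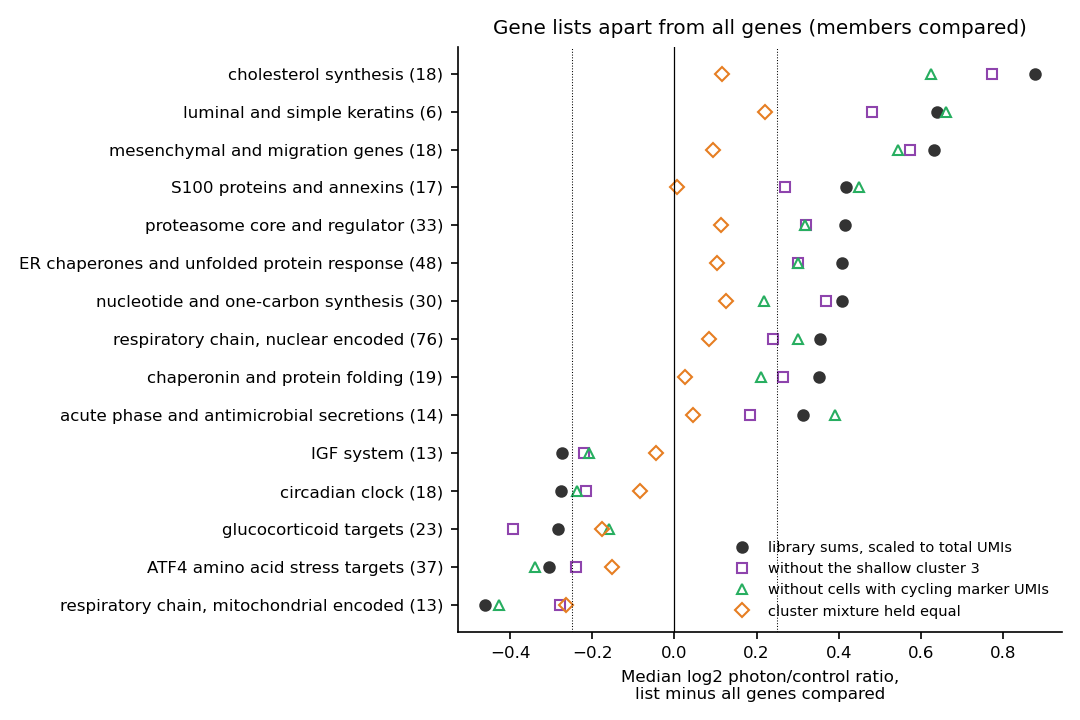
Median log2 ratio (photon / control) of each of 15 gene lists minus the median over all genes compared (x axis), with the number of members compared in parentheses. Filled circles are library sums, squares leave out cluster 3, triangles leave out cells with a cycling marker UMI and diamonds hold the cluster mixture equal; cholesterol synthesis lies farthest right at 0.88 and moves to 0.12 with the mixture equal.

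Among keratins Krt8, Krt7 and Krt16 were higher and Krt80 and Krt23 lower. In the list of luminal and simple keratins 2 of 6 compared members were at least 1.5-fold higher, 2 lower, and the median log2 ratio was 0.52. Krt8 stood at 223 CPM in control against 435 CPM in photon, a ratio of 1.95 (1.90 to 2.00) and mixture-equal 1.43. Krt7 stood at 993 CPM in control against 1650.4 CPM in photon, a ratio of 1.66 (1.64 to 1.68, 1.38 at equal mixture). Krt18, the partner of Krt8, was within 1.5-fold at 1.46 (1.44 to 1.48, 1.24 at equal mixture), and so was Krt19 at 1.4 (1.32 to 1.48, 1.06 at equal mixture). Krt23 and Krt80 were the lower ones, at 0.590 (0.543 to 0.642, 0.552 at equal mixture) and 0.538 (0.494 to 0.586, 0.687 at equal mixture). Of 8 basal and stratified keratins compared, Krt16, a keratin of activated epidermis, was higher at 2.26 (2.01 to 2.56, 1.48 at equal mixture), while Krt5, Krt14, Krt15 and Krt17 had ratios of 1.12, 1.37, 0.940 and 1.05. At equal mixture, Krt14, Krt15 and Krt17 were at 0.971, 0.796 and 0.799.

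Mesenchymal and migration genes were higher in 7 of 18 compared members and lower in 0, and the median log2 ratio was 0.51. Beside Vim and Lgals1, Emp3, an epithelial membrane protein, stood at 7.90 CPM in control against 21.9 CPM in photon, a ratio of 2.77 (2.44 to 3.16), and Tpm1, a tropomyosin of actin filaments, had a ratio of 1.65 (1.62 to 1.67). Emp3 was at 1.06 and Tpm1 at 1.16 with the mixture equal. Defining fibroblast genes were at or near 0 in both libraries, as given above. S100 proteins and annexins were higher in 4 of 17 and lower in 1, at a median of 0.29. Anxa2, a membrane-binding annexin, stood at 568 CPM in control against 969 CPM in photon, a ratio of 1.71 (1.68 to 1.73, 1.18 at equal mixture), and Anxa8 was lower at 0.664 (0.640 to 0.688, 0.648 at equal mixture). S100a4, on both lists, changed sides between the library sums and equal mixture, at 1.63 (1.47 to 1.82, 0.697 at equal mixture). Without cells holding a cycling marker UMI the mesenchymal list lay 0.54 from all genes, against 0.63 with them. With the mixture equal the mesenchymal list lay only 0.09 from all genes. The S100 and annexin list lay 0.42 away over the libraries and 0.01 with the mixture equal.

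Squamous genes did not move as 1 group. Of 23 cornified envelope and squamous genes compared, 6 were higher and 4 lower. Beside Krtdap the higher ones included Il1rn, the interleukin 1 receptor antagonist, at 2.62 (2.26 to 3.05, 1.3 at equal mixture) and the small proline-rich gene Sprr2a3 at 1.92 (1.86 to 2.00, 1.18 at equal mixture). Sprr2d, of the same family, was lower at 0.371 (0.339 to 0.407, 0.355 at equal mixture). The Sprr2 genes are near-identical copies and reads may be split between them.

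Other secreted protease inhibitors were higher beside Cst6. Wfdc18, a WAP-domain secreted protein, stood at 282 CPM in control against 806 CPM in photon, a ratio of 2.86 (2.80 to 2.92) and mixture-equal 1.55. Timp1, an inhibitor of matrix metalloproteases, had a ratio of 2.56 (2.40 to 2.74), and Adamts9, a protease that cuts matrix proteoglycans, 2.13 (1.95 to 2.34). Under an equal mixture Timp1 was at 1.34 and Adamts9 at 1.37. In total 6 of 44 proteases and inhibitors were higher and 2 lower. Of 23 hemidesmosome and integrin genes 0 were higher and 6 lower, against 3.79% and 8.91% of all genes outside the lists. Among the lower were the laminin chains Lamb2, Lama5 and Lamc1, components of the basement membrane, at 0.547, 0.624 and 0.637. With the mixture equal they were at 0.723, 0.860 and 0.845, within 1.5-fold of control.

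Cholesterol synthesis, which builds sterols from acetyl-CoA through mevalonate, farnesyl diphosphate and squalene, was the list farthest from all genes. In it 12 of 18 compared members were at least 1.5-fold higher, 0 lower, and the median log2 ratio was 0.75. Fdps (ENSMUSG00000059743, chr3:89093588-89101959), the farnesyl diphosphate synthase, stood at 52.5 CPM in control against 185 CPM in photon, a ratio of 3.52 (3.36 to 3.69). Cyp51, the lanosterol demethylase, stood at 64.2 CPM in control against 155 CPM in photon, a ratio of 2.41 (2.30 to 2.52). Idi1, the isopentenyl diphosphate isomerase, and Fdft1, the squalene synthase, had ratios of 2.24 (2.13 to 2.36) and 2.12 (1.97 to 2.28, 1.18 at equal mixture). At equal mixture, Fdps was at 1.56, Cyp51 at 1.19 and Idi1 at 0.995, and the list's distance from all genes was 0.12 instead of 0.88. Without cells holding a cycling marker UMI it was 0.62. Fdps lay above its control level in all 6 clusters, at ratios of 1.32 to 2.45. Its level was 204 and 270.4 CPM in control and photon cells of cluster 2, which held more of the photon cells, and 20.6 and 28.0 CPM in cluster 0.

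Among 47 genes of fatty acid and lipid metabolism 7 were higher and 2 lower. Fabp4 (ENSMUSG00000062515, chr3:10204088-10208576), a fatty acid-binding protein best known from adipocytes and macrophages, stood at 9.62 CPM in control against 100 CPM in photon, from 380 and 4692 UMIs, a ratio of 10.4 (9.36 to 11.6) and mixture-equal 6.68. Fabp4 was higher in each of the 6 clusters. In cluster 5 it was at 99.4 and 589 CPM, and in cluster 0 at 0.810 and 15.3 CPM. Acadl (ENSMUSG00000026003, chr1:66830839-66863277), the mitochondrial long-chain acyl-CoA dehydrogenase, stood at 228 CPM in control against 641 CPM in photon, a ratio of 2.81 (2.75 to 2.88) and mixture-equal 2.30. Acadl was also higher in each cluster, at ratios of 2.13 to 3.06. Acadm, the medium-chain enzyme of the same step, was lower at 0.663 (0.631 to 0.696, 0.719 at equal mixture), as was the acyl-CoA synthetase Acsl1 at 0.531 (0.482 to 0.586, 0.666 at equal mixture). Fads3, of the fatty acid desaturase family, and Plin2, a coat protein of lipid droplets, were higher at 2.62 (2.25 to 3.07) and 1.77 (1.66 to 1.90), and with the mixture equal at 1.17 and 1.44. Apoe was higher at 1.61 (1.52 to 1.70) over the library but at 0.559 with the mixture equal, and it is a leading gene of cluster 4.

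Chaperones of the endoplasmic reticulum (ER) and targets of ATF4, both arms of the cell's response to protein stress, lay on opposite sides. Of 48 ER chaperone and unfolded protein response genes 10 were higher and 2 lower, at a median of 0.28. Sdf2l1, an ER co-chaperone, stood at 8.30 CPM in control against 24.1 CPM in photon, a ratio of 2.90 (2.56 to 3.29, 1.70 at equal mixture), and Hsp90b1, the ER form of HSP90, at 331 CPM in control against 601 CPM in photon, a ratio of 1.82 (1.78 to 1.86, 1.43 at equal mixture). The lower ones were Herpud1, a factor of ER-associated degradation, and Atf6, an ER membrane sensor. Herpud1 stood at 239.9 CPM in control against 119.9 CPM in photon, a ratio of 0.50 (0.483 to 0.516) and mixture-equal 0.531. Atf6 stood at 149 CPM in control against 75.5 CPM in photon, a ratio of 0.508 (0.487 to 0.530) and mixture-equal 0.716. Cluster ratios were 0.474 to 0.622 for Herpud1 and 0.555 to 0.819 for Atf6.

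ATF4 is a transcription factor made when amino acids run short or eIF2 alpha is phosphorylated, and it switches on amino acid transporters and tRNA synthetases. In the list of ATF4 targets 1 of 37 compared members were at least 1.5-fold higher, 11 lower, and the median log2 ratio was -0.43. Slc7a11, the cystine importer, stood at 746 CPM in control against 305 CPM in photon, a ratio of 0.409 (0.401 to 0.418) and mixture-equal 0.642. Chac1, which degrades glutathione, stood at 50.4 CPM in control against 22.5 CPM in photon, a ratio of 0.447 (0.414 to 0.482) and mixture-equal 0.550. Slc6a9, a glycine transporter, was at 0.521 (0.467 to 0.581) and Yars, the tyrosyl-tRNA synthetase, at 0.521 (0.498 to 0.546), and with the mixture equal at 0.694 and 0.675. Psph, the last enzyme of serine synthesis, was the only higher member of this list, at 1.67 (1.57 to 1.76, 1.16 at equal mixture). Ddit3, the stress-induced factor CHOP, was not counted in this list and was higher. It stood at 18.7 CPM in control against 31.7 CPM in photon, a ratio of 1.70 and mixture-equal 1.69. Without cells holding a cycling marker UMI, which took Psph to 1.3, the ATF4 list lay -0.34 from all genes, against -0.31 with them. At equal mixture it lay at -0.15.

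Glutathione enzymes and NRF2 targets overlapped this list in Slc7a11 and Chac1. Of 49 compared, 7 were lower and 1 higher, and the list's median lay 0.04 from that of all genes. Gsta3 and Gstm1, glutathione S-transferases that conjugate toxic compounds, were at 0.388 (0.368 to 0.409, 0.522 at equal mixture) and 0.390 (0.371 to 0.410, 0.485 at equal mixture). Gsta3 stood at 112 CPM in control against 43.3 CPM in photon and was lower in all 6 clusters, at 0.368 to 0.581. These families hold similar genes, and reads may be split within them. Prdx4, the peroxiredoxin of the ER, was higher at 1.74 (1.64 to 1.85, 1.29 at equal mixture).

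**Figure D3:**
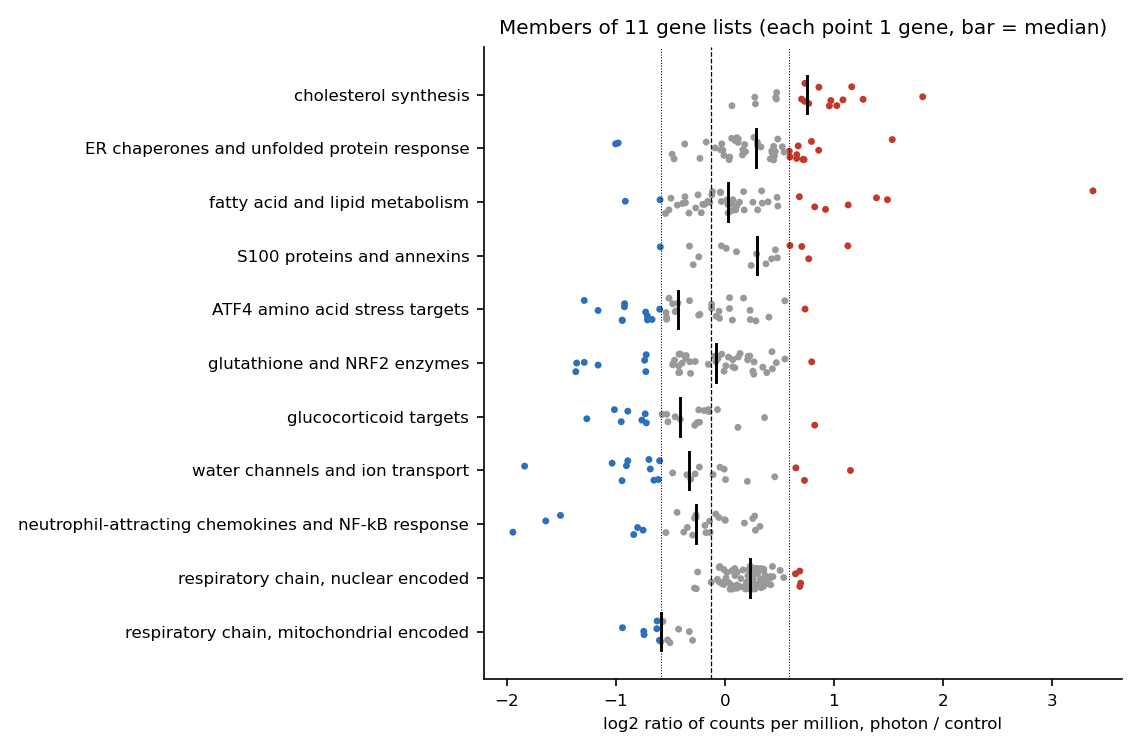
Log2 ratio of counts-per-million (photon / control, x axis) for every compared member of 11 gene lists, 1 point per gene with vertical jitter only for legibility. Black bars are list medians, the dashed line is the median of all genes at -0.12 and dotted lines mark 1.5-fold, beyond which points are red (higher) or blue (lower); 12 of 18 cholesterol genes are red and 11 of 37 ATF4 targets are blue.

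The medium held dexamethasone in both groups, a glucocorticoid that acts through a nuclear receptor. Of 23 glucocorticoid targets 7 were lower and 1 higher, at a median of -0.41. The list lay -0.28 from all genes, but -0.09 with each cell weighted equally, -0.16 without cells holding a cycling marker UMI and -0.18 at equal mixture. Without cells holding 2 or more UMIs of the G2M list its sign was the opposite, at 0.17. Errfi1, which also restrains EGF receptor kinases, stood at 559 CPM in control against 233 CPM in photon, a ratio of 0.416 (0.407 to 0.426), and its mixture-equal ratio was 0.796. Fkbp5, a co-chaperone of the receptor, stood at 187 CPM in control against 92.8 CPM in photon, a ratio of 0.496 (0.477 to 0.515) and mixture-equal 0.701. Tfcp2l1, a transcription factor of ducts, and Scnn1a, a subunit of the epithelial sodium channel, were at 0.518 (0.510 to 0.525, 0.795 at equal mixture) and 0.540 (0.496 to 0.587, 0.710 at equal mixture). Tsc22d3 and Sgk1, widely used readouts of the receptor, were at 0.603 (0.571 to 0.636, 0.733 at equal mixture) and 0.607 (0.591 to 0.623, 0.715 at equal mixture) and lay below control in all 6 clusters. Plin2 was the higher member. Clock genes, some of which glucocorticoids also induce, were lower in 5 of 18 and higher in 0, at a median of -0.40: Hlf, Per3 at 0.567 (0.520 to 0.618), Per2 at 0.597 (0.546 to 0.653), Cry2 and 1 more. With the mixture equal Per3 was at 0.748 and Per2 at 0.962.

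Water channels and ion transporters, through which ducts and acini move salt and water, were lower in 10 of 24 compared members and higher in 3. The list's median lay -0.20 from that of all genes, which is under the 0.25 used here. Beside Aqp3, Atp1b1, the beta subunit of the sodium pump, stood at 613 CPM in control against 299 CPM in photon, a ratio of 0.489 (0.478 to 0.499) and mixture-equal 0.757. Ano1, the calcium-activated chloride channel, stood at 103 CPM in control against 53.4 CPM in photon, a ratio of 0.520 (0.495 to 0.547) and mixture-equal 0.702. The higher members were Clca3a2, Kcnn4, a calcium-activated potassium channel, at 2.22 (2.02 to 2.45, 1.17 at equal mixture), and Slc12a2, the sodium, potassium and chloride cotransporter that loads secretory cells with chloride. Slc12a2 stood at 46.5 CPM in control against 73.1 CPM in photon, a ratio of 1.57 (1.48 to 1.66) and mixture-equal 1.59.

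Chemokines that attract neutrophils and genes of the NF-kB response held 6 lower and 0 higher among 27. Il1a, Cxcl3 and Ccl20 were followed by Csf3, the granulocyte colony-stimulating factor, at 18.4 CPM in control against 10.3 CPM in photon and a ratio of 0.560 (0.499 to 0.630). For these 4 the mixture-equal ratio lay farther from 1 than the library ratio, with Csf3 at 0.436. Acute phase and antimicrobial genes held 3 higher and 3 lower members of 14, with Wfdc18 and Il1rn on one side and Orm1 and Orm3 on the other.

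The respiratory chain is built from subunits of both genomes. Of 13 mitochondrially encoded subunits 0 were higher and 6 lower, at a median log2 ratio of -0.58. The list summed to 32859.5 CPM in control and 22343 CPM in photon. mt-Nd4l was lowest at 0.522 (0.513 to 0.531, 0.620 at equal mixture), and mt-Co1 stood at 9299.7 CPM in control against 6138 CPM in photon, a ratio of 0.660 (0.657 to 0.663, 0.815 at equal mixture). Of 76 nuclear-encoded subunits 4 were higher, against 3.79% of all genes outside the lists, and 0 lower, at a median of 0.23. The 4 were Atp5k at 1.62 (1.52 to 1.73, 1.33 at equal mixture), Cycs, Ndufa4 and Cox5b. Relative to all genes the mitochondrial list lay at -0.46 and the nuclear one at 0.36, and with the mixture equal at -0.26 and 0.08. The nuclear list lay at 0.12 when genes were centred within quintiles of length and at 0.24 without cluster 3, and the mitochondrial one at -0.73 and -0.28. The mitochondrial share of UMIs is also part of the cell filter, and it is a common measure of cell condition at capture, whose part in this difference was not tested.

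Of 32 glycolysis and hypoxia genes 7 were higher and 3 lower, and the list lay 0.16 from all genes over the libraries but -0.05 with the mixture equal. Gapdh, the glyceraldehyde phosphate dehydrogenase, stood at 95.7 CPM in control against 183 CPM in photon, a ratio of 1.91 (1.84 to 1.99) and mixture-equal 1.64. Ldha, which makes lactate, was higher at 1.65 (1.62 to 1.68, 1.20 at equal mixture), whereas Ldhb, its counterpart isoform, was lower at 0.642 (0.610 to 0.675, 0.574 at equal mixture) and lay below control in all 6 clusters, at 0.432 to 0.711. Vegfa and Adm, secreted products of the hypoxia response, were lower at 0.567 (0.534 to 0.601, 0.590 at equal mixture) and 0.482 (0.430 to 0.540, 0.765 at equal mixture). Gapdh has processed copies in the genome that can share its reads.

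Of 30 nucleotide and one-carbon genes 7 were higher and 2 lower, and the list lay 0.41 from all genes, 0.22 without cells holding a cycling marker UMI and 0.13 at equal mixture. Dctd, the deoxycytidylate deaminase, stood at 10.3 CPM in control against 27.8 CPM in photon, a ratio of 2.70 (2.41 to 3.02, 1.69 at equal mixture), and Nme1 and Nme2, nucleoside diphosphate kinases of near-identical sequence, were at 1.74 (1.69 to 1.79, 1.3 at equal mixture) and 1.76 (1.73 to 1.78, 1.3 at equal mixture). Of 33 proteasome genes 1 was higher and of 19 chaperonin genes 1, which is near the 3.79% of all genes outside the lists. The medians of these lists lay 0.42 and 0.35 from that of all genes. At equal mixture these distances were 0.11 and 0.02. Ribosomal protein genes lay 0.34 away over the libraries and -0.01 with the mixture equal, so their sign did not hold.

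In the list of small nucleolar RNA hosts and nuclear RNAs 6 of 24 were higher, all of them hosts, and 3 lower, all of them long RNAs kept in the nucleus. Zfas1 stood at 54.2 CPM in control against 115 CPM in photon, a ratio of 2.13 (2.03 to 2.24, 1.70 at equal mixture), and was higher in all 6 clusters, at 1.54 to 2.27. Snhg12, at 32.4 CPM in control against 63.4 CPM in photon and a ratio of 1.96 (1.83 to 2.09, 1.69 at equal mixture), lay above control in all 6 as well, and Snhg1 was at 1.89 (1.81 to 1.97, 1.42 at equal mixture). Neat1, the RNA scaffold of paraspeckles, stood at 1264 CPM in control against 573 CPM in photon, a ratio of 0.453 (0.446 to 0.460) and mixture-equal 0.734. Without cluster 3, Neat1 was at 0.537 and Malat1 at 0.667.

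The YAP, EGF receptor and IGF lists each had more lower than higher members, as had all genes outside the set-aside lists, and the list of Wnt targets had 2 of each among 34. The YAP list had 6 lower and 0 higher of 32, among them Dlc1, a GTPase-activating protein, at 0.485 (0.444 to 0.530, 0.729 at equal mixture) and Ccn1, a secreted matricellular target of YAP, at 237 CPM in control against 134 CPM in photon, a ratio of 0.568 (0.550 to 0.587, 0.798 at equal mixture). Under an equal mixture the YAP list lay -0.00 from all genes. In the EGF receptor list 4 of 24 were lower, with Errfi1 and the receptor Fgfr2 at 0.589 (0.564 to 0.614, 0.774 at equal mixture) among them, and 2 higher: Areg, the ligand amphiregulin, at 1.77 (1.69 to 1.86, 1.26 at equal mixture), and Etv4, an ETS factor induced by receptor signalling, at 2.50 (2.19 to 2.85, 1.61 at equal mixture). The cyclins Ccnd1 and Ccnd2, listed with Wnt targets, were higher at 1.75 (1.71 to 1.79) and 2.17 (2.11 to 2.23), and with the mixture equal at 1.19 and 1.79. In the IGF list of 13, Igfbp2 was higher and 4 were lower, at a median of -0.40. The mRNA-binding protein Igf2bp3 and the receptor adaptors Irs1 and Irs2 were at 0.548 (0.490 to 0.614), 0.598 (0.575 to 0.621) and 0.620 (0.587 to 0.655). With the mixture equal they were at 0.893, 0.968 and 1.08, all within 1.5-fold.

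Ratios were also taken within the 6 clusters with enough cells, which left out clusters 6 and 7 (21 and 17 control cells). Of the 8051 genes outside the lists, only 24 were at least 1.5-fold higher and 15 at least 1.5-fold lower in each of the 6 clusters. Of the same 8051, 525 and 981 were on the same side of 1 in all 6. Fabp4, Spp1, AW011738, Fbxw17, Tcea3, Acadl and Zfas1 were among the 24. So was Slit2 (ENSMUSG00000031558, chr5:47983138-48307733), a secreted guidance protein that binds ROBO receptors. Slit2 stood at 48.5 CPM in control against 137 CPM in photon, a ratio of 2.83 (2.68 to 2.97, 3.15 at equal mixture), and at 89.8 and 347 CPM in cluster 3 and 27.9 and 57.4 CPM in cluster 5. H2afj, a histone H2A variant, was higher by an even margin, at 1.55 to 1.76 across clusters and 1.73 (1.67 to 1.79, 1.60 at equal mixture) over the library. Some of these genes rest on few UMIs: Spp1 had 0 control UMIs in cluster 4, 4 control and 2 photon UMIs in cluster 3 and 5 and 6 in cluster 0, and AW011738 had 1 control UMI in cluster 5. For the counts of 24 and 15 genes, values under 3 counts in a cluster were set to 3 counts. For the 525 and 981 genes and the cluster ratios quoted, only values at 0 were. Slit2, Acadl, Zfas1 and H2afj had at least 33 UMIs in every cluster of both libraries.

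The muscarinic receptor gene Chrm3 and the coactivator gene Ppargc1a differed within clusters and little over the library. Chrm3 (ENSMUSG00000046159, chr13:9875486-10360847) encodes the M3 receptor, through which acetylcholine drives salivary secretion. It stood at 121 CPM in control against 159 CPM in photon, a ratio of 1.31 (1.26 to 1.36) that is within 1.5-fold, and its mixture-equal ratio was 2.15. It was at 82.0 and 208 CPM in control and photon cells of cluster 0, at 166 and 289 CPM in cluster 1, at 27.1 and 65.4 CPM in cluster 2 and at 245 and 581 CPM in cluster 3. In clusters 4 and 5 control held only 6 and 9 UMIs of it. Its level was highest in cluster 3 and lowest in clusters 4 and 5, and cluster 3 made up less of the photon library. Ppargc1a, which drives mitochondrial biogenesis, stood at 128 CPM in control against 158 CPM in photon, a ratio of 1.23 (1.19 to 1.28) and mixture-equal 1.87, with 75.8 and 170.3 CPM in cluster 0 and 219 and 383 CPM in cluster 1.

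Of the 15 genes lower in every cluster, Hspb1, Herpud1, Chac1, Gsta3, Coq8a, Aox3 and Orm3 have been described. Nbl1, a secreted antagonist of bone morphogenetic proteins, stood at 76.8 CPM in control against 37.0 CPM in photon, a ratio of 0.482 (0.454 to 0.511, 0.555 at equal mixture) and cluster ratios of 0.406 to 0.613. Epha7, a receptor of the ephrin family, stood at 111 CPM in control against 49.9 CPM in photon, a ratio of 0.449 (0.426 to 0.472, 0.508 at equal mixture) and cluster ratios of 0.464 to 0.661. Fbxo2, which recognises glycoproteins for degradation, was at 0.484 (0.437 to 0.537, 0.424 at equal mixture). In clusters 0 and 1 the counts of higher and lower genes were closer than over the library, at 206 and 146 of 7832 and 194 and 210 of 7833. Cluster 2 had 141 and 332 of 7589 and cluster 3 had 321 and 368 of 7742. Cluster 4 had 624 and 844 of 7318 and cluster 5 had 622 and 1075 of 7142.

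**Figure D4:**
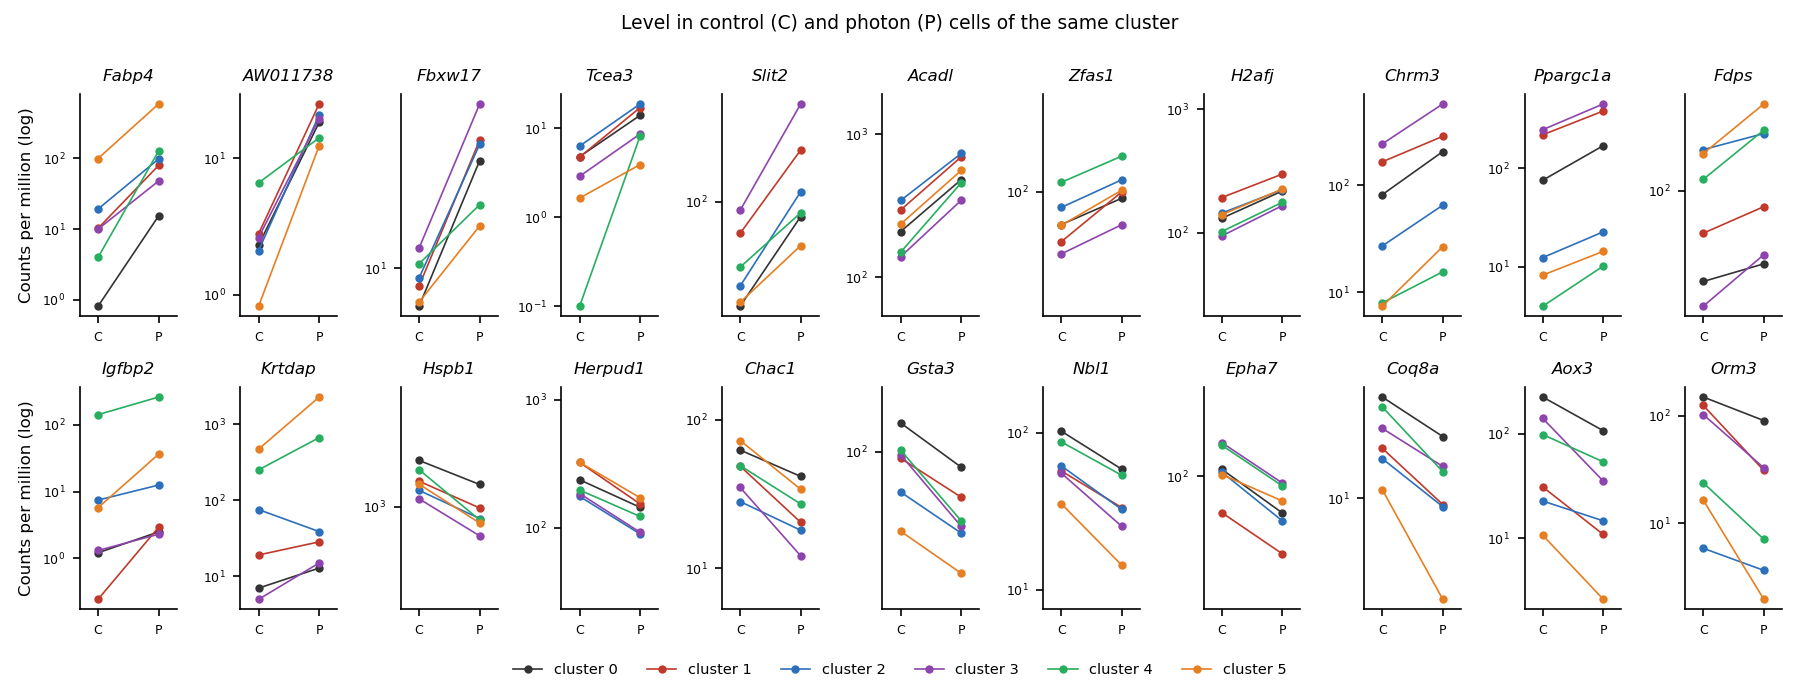
Level of 22 genes in control cells (C) and photon cells (P) of the same cluster, in counts-per-million on log axes that differ between panels; each line is 1 of the 6 clusters compared and values under 0.1 are drawn at 0.1. Fabp4, Acadl and Slit2 are higher and Hspb1, Gsta3 and Orm3 lower in photon in all 6 clusters, while Krtdap is higher in 5 and lower in cluster 2.

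The difference also followed the length of genes. Outside the lists, median log2 ratios by quintile of gene length, introns included, were 0.13, -0.00, -0.14, -0.26 and -0.35 from the shortest to the longest genes. In the longest quintile 18.2% of genes were lower, against 4.55% in the shortest, where the background over all these genes was 8.91%. Without cluster 3 the medians ran from 0.06 to -0.22, and with the mixture equal all 5 lay between -0.05 and -0.00. Chromosome medians spanned a narrow range, from -0.20 on chromosome 18 to -0.06 on chromosome 19. The 44 antisense genes compared had a median of -0.65, with 27 lower and 1 higher, and their median was -0.45 without cluster 3 and -0.22 with the mixture equal. Strand use and the treatment of intron reads were not given in the sources used here.

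**Figure D5:**
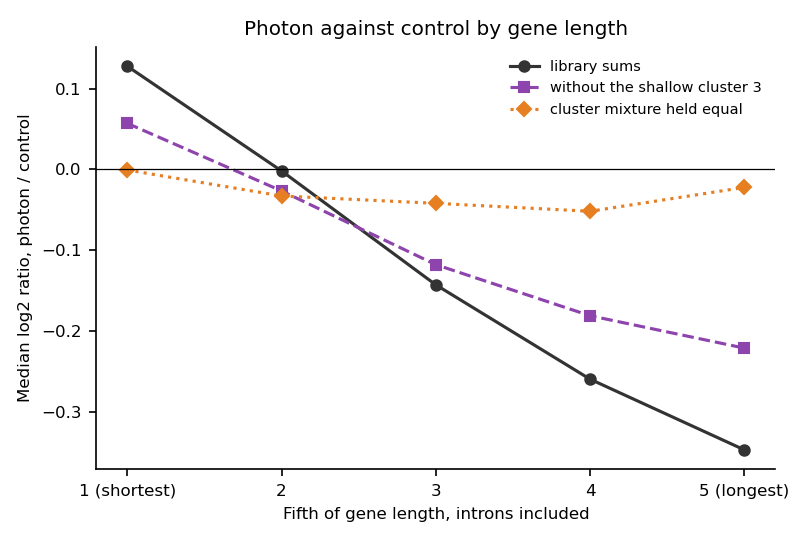
Median log2 ratio of photon to control (y axis) by quintile of gene length (x axis, 1582 to 1653 genes each, outside the set-aside lists). The library sums run from 0.13 to -0.35, the values without cluster 3 from 0.06 to -0.22, and those with the mixture held equal stay between -0.05 and -0.00.

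Photon cells differed among themselves in the UMIs of the set-aside interferon and MHC lists. Of the few genes followed here, some rose with them, some fell and some were level. The 10891 photon cells with at least 2000 UMIs were thinned to 2000 UMIs and ranked by these UMIs into 3 groups of 3630, 3630 and 3631 cells, with medians of 65, 83 and 104. Control cells treated alike had a median of 30. Levels here are CPM over all other genes. Krtdap was at 305 CPM in the low, 161 in the middle and 82.9 in the high group, against 30.3 in control, so it was highest where interferon list UMIs were lowest. Igfbp2 had the same order, at 56.9 CPM in the low, 40.8 in the middle and 26.1 in the high group, against 4.54 in control. Fbxw17 had the opposite order, at 33.4 CPM in the low, 41.0 in the middle and 57.7 in the high group, against 6.60 in control, and so did Acadl, at 534 CPM in the low, 704 in the middle and 843 in the high group, against 237 in control. Fdps was level, at 187 CPM in the low, 195 in the middle and 193 in the high group, against 46.1 in control, and Cst6 too, at 117 CPM in the low, 116 in the middle and 116 in the high group, against 25.9 in control. Orm3 was at 24.7 CPM in the low, 19.8 in the middle and 12.7 in the high group, against 135 in control. Each of these genes was on the same side of control in all 3 photon groups. The groups are cells of 1 library ranked by its own counts, and the share of each cluster in them was not compared. How many of all genes rose or fell across the groups was not counted.

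The proton library, which received the same dose and shares the control, had the following levels of the main genes. Fabp4 was at 99.0 CPM in proton beside 100 in photon, and Slit2 at 213 beside 137. Chrm3 was at 262 beside 159. Acadl was at 278 beside 641, close to the control level of 228, and Spp1 at 5.97 beside 19. Among cholesterol genes Fdps was at 111 beside 185 and Cyp51 at 79.3 beside 155. Among lower genes Hspb1 was at 617 beside 932 and Ano1 at 93 beside 53.4. Hsp90b1 stood at 326 in proton, near its control level of 331, and at 601 in photon.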

How the data were processed

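Each library was deposited as 1 matrix of raw UMI counts per gene and barcode. The authors used Cell Ranger 7.0.1 and mm10, per the submitters' processing notes, while the file headers name version 7.0.0, with annotation release and use of intron reads not given in the sources used here. From the deposited counts, barcodes with at least 500 genes and at most 20% mitochondrial UMIs were kept and summed (Python 3.11.15, numpy 2.4.6, scipy 1.17.1, pandas 2.3.3). In library and cluster ratios a count of 0 was set to 3 counts, which is 0.0759 CPM in control and 0.0639 CPM in photon for the whole libraries. In counts of genes past 1.5-fold within clusters any value under 3 counts was set to 3, and mixture-equal levels had a floor of 0.0639 CPM. The ratio and its interval were run on simulated independent Poisson counts, which the interval itself assumes. That run checks the calculation only and holds no spread between cells or cultures. No doublet caller was run, and leaving out the deepest 5% of barcodes was tried instead. Cells were clustered with scanpy 1.11.5 and leidenalg 0.10.2 (2000 variable genes, 30 components, 20 neighbours, resolution 0.5), without correction between libraries. Positions are GENCODE M21 and promoters RefSeq.

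Members and lists were chosen with earlier results of these data known, and 696 genes of 5 lists (interferon, MHC, G2M, S phase and p53) were set aside. The genes named are the 15 highest and 15 lowest ratios, the 10 largest gains and 10 largest losses of CPM, keratins, markers, and up to 4 members per list with the largest log2 ratio past 1.5-fold; predicted genes were counted and not named. Named outside that rule, after their values were seen, were Gm20559, A930037H05Rik, Agrn, Cpne2, Trim7, Pglyrp1, Sumo3, Psph, Ddit3, Prdx4, Plin2, Apoe, Acsl1, Acadm, Anxa8, Ldhb, Tsc22d3, Sgk1, Slc12a2, Clca3a2, Slit2, H2afj, Chrm3, Ppargc1a, Nbl1, Epha7 and Fbxo2. Some genes of the lists are not reported here.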

Additional observations from a re-analysis of the deposited data

How the results depend on the processing

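Outside the lists the count of genes higher in photon was 305 and that of genes lower in photon 717. Scaling by the median of gene ratios gave 676 higher and 251 lower. With the cluster mixture held equal they were 123 and 129, at a mean of at least 25 CPM 197 and 466, and at 2-fold 71 and 83. Leaving out cells with 2 or more UMIs of the G2M list gave 1588 and 1609, but that kept only 1372 control and 631 photon cells. Counts of lower genes were also 448 with totals that left out mitochondrial, ribosomal and set-aside genes, 330 when centred within quintiles of gene length (with 53.7% of calls higher), 442 without cells holding a cycling marker UMI and 421 without cluster 3. The last 2 settings were chosen after seeing the data. All deposited barcodes, a stricter cell filter, the deepest barcodes left out, equal weight per cell and thinning to one depth kept both counts within 1.5 times.

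Of 202 genes followed through every setting, 180 were past 1.5-fold, 52 of them under every setting and 63 when the setting on G2M list UMIs is left aside. Among the 180, the log2 ratio on that setting changed sign for Adm (0.22), Anxa8 (0.76), Chac1 (0.26), Cirbp (0.54), Coq8a (0.14), Cyp2f2 (0.0552), Gstm1 (0.20), Hspb1 (0.89), Id3 (0.24), Ldhb (0.56), Ly6d (1.15), Map1lc3a (0.77), Myc (0.0471), Nbl1 (0.0331), Orm1 (0.0721), Orm3 (0.24), Psph (-0.13), Rflna (0.0331) and Scnn1a (0.38), and the glucocorticoid targets list lay 0.17 from all genes. With the mixture equal it changed sign for Apoe (-0.84), Bok (-0.0513), Idi1 (-0.00749), Irs2 (0.11), Msln (-0.0102) and S100a4 (-0.52). The cause was not tested.

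No paired analysis was possible because each group is 1 library. There is no spread between cultures to set a difference against, and all intervals cover counting error only.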
